A study of Homo sapiens with 7 samples.

Results

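DEAD and DEAH box proteins are helicases that use ATP to unwind short RNA duplexes or to strip proteins from RNA, and their human genes carry the DDX and DHX symbols. Every symbol made of DDX or DHX, a number and at most 1 further letter was taken from the deposited table, except for 2 symbols that were left out by name. This gave 54 genes, 38 DDX and 16 DHX, of the 20072 symbols in the table. A further 6 symbols that start with DDX or DHX did not have this form and were not matched. The levels came from HCT116, an established human colon carcinoma cell line in log phase. The cells for the polysome libraries had been incubated with cycloheximide, which holds ribosomes on mRNA, and no such step is described for the others, so that the effect of the drug and of polysome selection cannot be told apart. 3 parameters were measured, and the study describes dividing log-phase cells into 3 parts for them. The transcription rate (TR) was measured by GRO-seq, which sequences nascent RNA from a nuclear run-on (2 libraries). RNA-seq gave mRNA abundance (RA, 3 libraries). Translation activity (TA) came from sequencing the RNA of polysomes, the mRNAs loaded with several ribosomes (2 libraries). All values were RPKM, reads scaled by exon length and library size, so that levels could be set side by side between genes.

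As background, both families share a core of 2 domains that resemble the bacterial recombinase RecA and close over ATP and RNA. DEAD box proteins mostly open a duplex locally, without travelling along the strand, and act in ribosome assembly, splicing, mRNA export and translation initiation. DEAH box proteins move along single-stranded RNA, and several of them drive the rearrangements of the spliceosome, where G-patch proteins activate them. The families are named after the residues of one motif of the ATP site, in which aspartate, glutamate and alanine are followed by aspartate in the DEAD form and by histidine in the DEAH form.

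The symbols did not map onto the motif one to one. The motif was sought in the proteins of the GENCODE transcripts as aspartate and glutamate, then alanine, cysteine, valine, isoleucine or serine, then aspartate or histidine, 40 to 350 residues after the glycine-rich ATP-binding loop. It was found in 52 of the 54 genes. Among the 38 DDX genes, 28 carried DEAD, 2 DEVD, 2 DECD and 1 DESD, so that 33 ended in aspartate. The other 4 with a match ended in histidine: DDX11 with DEAH, DDX58 with DECH, and DDX60 and DDX60L with DEVH. All 15 DHX genes with a match ended in histidine, as DEAH in 8, DEVH in 4, DEIH in 2 and DECH in 1. DDX12P, an unprocessed pseudogene, has no protein, and this search gave no match in DHX32. The first residue of the ATP-binding loop separated the families more cleanly, as it was glycine in 14 DHX genes and in none of the DDX genes, and alanine or serine in 37 DDX genes. 

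The coding stretches around the motif are given for genes that recur in the results, since the last capital codon sets the aspartate from the histidine forms. Each stretch is 30 bases of coding exon, 5′ to 3′ on the strand of the gene, with the 4 codons of the motif in capitals, from the GENCODE transcripts on GRCh37, which the hg19 build used by the authors shares. All 40 stretches that lay within 1 exon were equal to the genome sequence. The first 4 are aspartate forms: DDX5 at chr17:62499354-62499383 on the minus strand, DDX56 at chr7:44612211-44612240 on the minus strand, DDX21 at chr10:70726875-70726904 on the plus strand and DDX52 at chr17:35986105-35986134 on the minus strand.
DDX5 (DEAD): cttgtccttGATGAAGCAGATagaatgctt
DDX56 (DEAD): ttggtggtgGACGAAGCTGACcttcttttt
DDX21 (DEVD): gttgtcctgGATGAAGTGGACcagatgttg
DDX52 (DESD): cttgtagtaGACGAATCAGATaaactgttt
The next 5 are histidine forms: DHX15 at chr4:24557937-24557966 on the minus strand, DHX9 at chr1:182836143-182836172 on the plus strand, DHX34 at chr19:47858416-47858445 on the plus strand, DDX11 at chr12:31244731-31244760 on the plus strand and DDX58 at chr9:32488021-32488050 on the minus strand.
DHX15 (DEAH): ataattcttGATGAGGCTCATgagaggaca
DHX9 (DEIH): gtaattgtaGATGAAATACATgaaagagat
DHX34 (DEVH): ctgattgtgGATGAAGTCCATgagcggcat
DDX11 (DEAH): gtgatcatcGACGAGGCGCACaacctgatc
DDX58 (DECH): atgatatttGATGAATGCCACaacactagt

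The libraries held between 3391897 and 30805391 reads, a 9.08-fold range, with the smallest in TR. The read counts were recovered from the RPKM values, all of which were whole multiples of 1 read within 0.01 reads. The epithelial genes EPCAM and KRT8 stood at 210 and 700 RPKM in RA, while the leukocyte gene PTPRC and the endothelial gene PECAM1 stood at 0.00399 and 0.011 RPKM. CD68 and COL1A1, listed as markers of other cell types, were present at 23.1 and 11.5 RPKM, and the colon gene LGALS4 was at 0.0984 RPKM. RA replicate 1 differed from the mean of the other RA libraries by over 1.5-fold for 12 of the 47 helicase genes whose means reached 1 RPKM in TR, RA and TA (25.5%), against 22.6% of the 10825 genes at that level. In bulk libraries, a gene used by fewer cells and a gene used less in every cell cannot be told apart.

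The medians of both families lay above that of all tested genes in every library, and the helicase genes' share of the reads was larger in TA than in TR. They took 0.55% and 0.531% of the reads in TR, 0.64%, 0.634% and 0.589% in RA, and 0.878% and 0.71% in TA. All 7 libraries had a median over the 34 tested DDX genes between 24.2 and 30.1 RPKM, where the median over all tested genes lay between 6.75 and 14.2 RPKM. The 16 DHX genes had medians of 15.7 and 16.5 RPKM in TR, 20.2, 19.3 and 19.2 in RA, and 23.4 and 17.3 in TA. The DDX median was above the DHX median in each of the 7 libraries, by 0.36 to 0.74 on the log2 scale.

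DDX5, which unwinds RNA in transcription, splicing and microRNA processing, had the highest level in every parameter. It measured 187 and 188 RPKM in TR, 203, 209 and 171 in RA, and 372 and 259 in TA. The order below it changed between parameters. In TR it was followed by DDX17, its close relative, and by DDX42, a splicing factor. DDX17 measured 88.6 and 80.4 RPKM in TR, 64.5, 71.2 and 65.2 in RA, and 103 and 80.8 in TA. DDX42 measured 66.1 and 61.7 RPKM in TR, 60.3, 83.0 and 67.5 in RA, and 89.6 and 68.3 in TA, and its RA values overlapped those of both TR and TA. In RA and TA it was followed by DDX47 and DDX21, which both act in the nucleolus on pre-ribosomal RNA. DDX47 measured 45.0 and 43.5 RPKM in TR, 74.0, 142 and 137 in RA, and 196 and 166 in TA. DDX21 measured 35.9 and 33.4 RPKM in TR, 70.7, 106 and 106 in RA, and 154 and 113 in TA. Both were lower in RA replicate 1 than in the other RA libraries, and still above both TR libraries there. DHX15, a DEAH helicase of splicing and ribosome assembly, ranked highest of the DHX genes in RA, with 97.1, 67.1 and 77.0 RPKM, against 46.8 and 32.9 in TR.

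**Figure D1:**
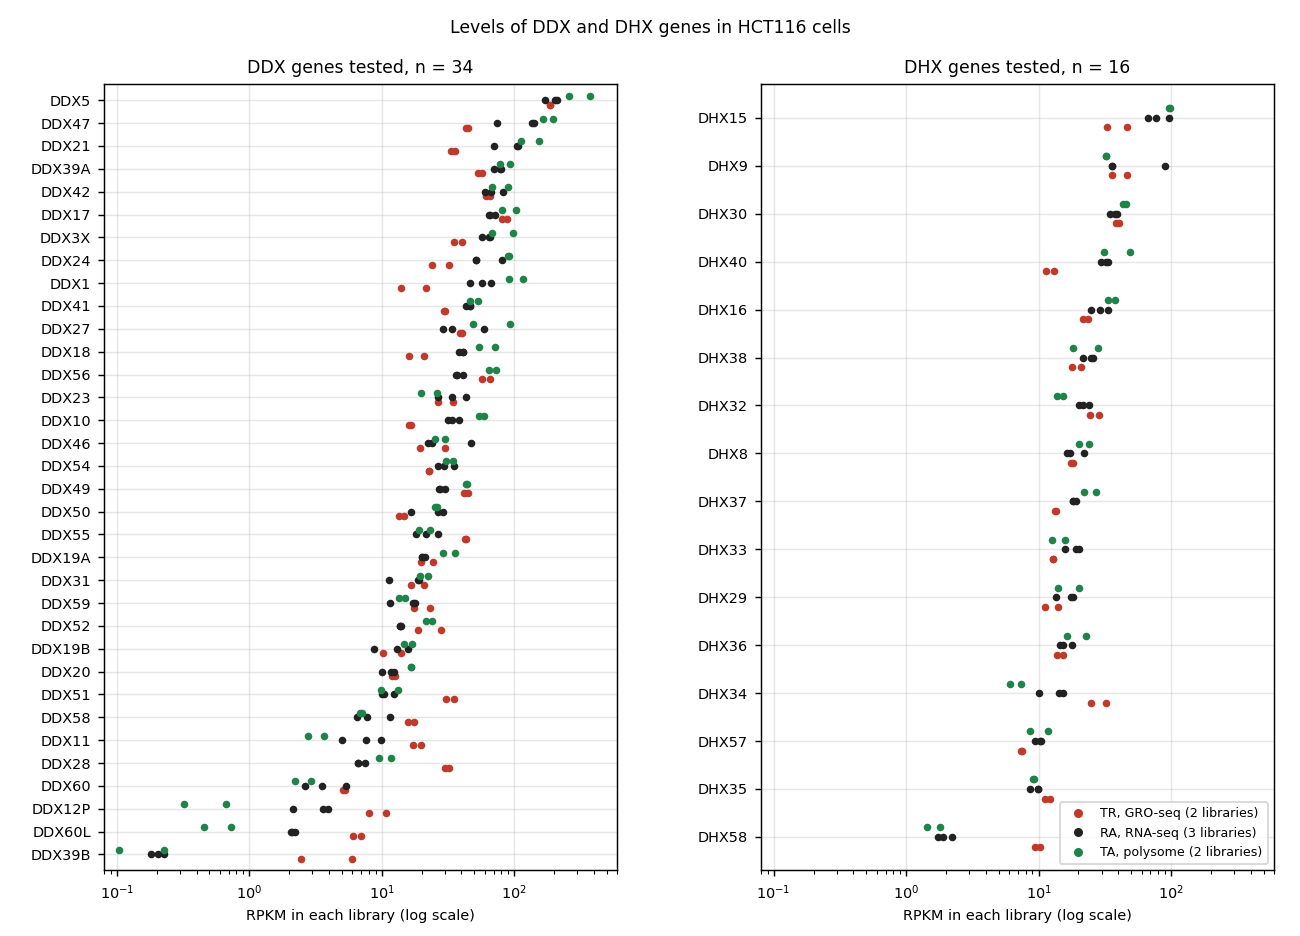
RPKM of the 50 tested genes in each of the 7 libraries on a log axis, with DDX genes on the left and DHX genes on the right, ordered by mean RA; each point is 1 library, red for TR, black for RA and green for TA. DDX5 stands at the top in all parameters, and DDX39B lies below 1 RPKM in RA and TA while its TR libraries stand at 2.46 and 6.003.

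4 genes fell under the filter of a mean of 1 RPKM in at least 1 parameter and were not tested: DDX4, the germ-cell helicase also called VASA, and DDX25, DDX43 and DDX53, which are known from testis or tumors. DDX25 had 1 and 7 reads in TR and 2 to 5 reads in each other library, and DDX4 had at most 3 reads in any library. DDX53 had 1 read in 1 TR library. DDX43 was listed at 0 in all 7 libraries, but so was EIF4A1, the general translation initiation helicase that every cell uses, so that a listed 0 in this table is no measure of absence. Of the 50 tested genes, 47 had at least 1 RPKM in each parameter. DDX39B passed the filter through TR alone, and DDX12P and DDX60L through TR and RA, so that their lower calls below are partly set by the filter.

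The first comparison, RA against TR, addresses how far the mRNA pool departs from the rate of synthesis, which the study uses as an index of stability. The differences are given on the log2(RPKM + 0.1) scale, with p-values from limma after Benjamini-Hochberg adjustment over 14305 genes, and a call needed an adjusted p under 0.05. RA was higher than TR for 14 of the 50 tested helicase genes and lower for 13, where 19.2% of all tested genes were higher and 48% lower. The median difference was 0.05 for the helicase genes and -0.58 for all genes tested. Where only genes whose mean reached 1 RPKM in TR, RA and TA alike were counted, 14 of 47 helicase genes were higher (29.8%) and 10 lower (21.3%), against 24.7% and 34.2% of all such genes. RPKM are shares of a library, and the scaling moved these counts. With each library centred on its median the median of all genes changed from -0.58 to 0.09, and 28 helicase genes were higher and 5 lower. Leaving out TR replicate 2 left 6 higher and 10 lower.

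In the second comparison, TA against RA, which relates polysome RNA to the mRNA pool as an index of translation, 9 of the 50 helicase genes were higher and 5 lower. Of all tested genes, 6.66% were higher and 29.2% lower. The median difference was 0.21 for the helicase genes and -0.37 for all genes tested. After centring, 27 helicase genes were higher and 2 lower, and the median of all genes was 0.13. The calls rested on few libraries, as the count of higher genes was 5 without TA replicate 2, 2 without RA replicate 3 and 0 without TA replicate 1. At an unadjusted limma p under 0.05, 6 genes were still higher without TA replicate 1. The lower calls numbered 3 without TA replicate 2, and 2 without RA replicate 3 or without TA replicate 1, in both cases DDX12P and DDX60L. TA against TR, which combines the steps, gave 17 helicase genes higher and 12 lower, against 17% and 57.5% of all tested genes, and 37 higher and 6 lower after centring.

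The DDX and DHX genes were then compared with each other. On the log2 ratio of mean RPKM, RA over TR had a median of -0.04 over the 34 DDX genes and 0.34 over the 16 DHX genes. The DDX median turned to the positive side once libraries were centred, with a limma difference of 0.61 in place of -0.07, while within a pairing of libraries the gap between the families does not depend on such a scaling. The gap, DDX minus DHX, was -0.38, and it lay between -0.65 and -0.11 over the 6 pairings of a TR with an RA library. For TA over RA the medians were 0.34 in DDX and 0.03 in DHX genes. The gap of 0.31 lay between 0.07 and 0.53 over the 6 pairings of an RA with a TA library. It thus kept its sign in every pairing in both comparisons, although the SD over the genes of a family was larger than the gap. The pairings share libraries, and both comparisons use the RA libraries, so that they are not independent. The SD over DDX genes was 1.21 for RA over TR and 0.78 for TA over RA, against 0.85 and 0.42 over DHX genes. These DDX values include DDX39B, DDX12P and DDX60L, which did not reach 1 RPKM in each parameter, while all 16 DHX genes did. Over the 31 DDX genes at that level the SD was 0.92 for RA over TR and 0.49 for TA over RA, and the medians were 0.05 and 0.41. No test was made between the families, since genes are not replicates.

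By single genes, RA was higher than TR for 10 of 34 DDX genes and lower for 11 (29.4% and 32.4%), and for 4 and 2 of 16 DHX genes (25% and 12.5%), beside 19.2% and 48% of all tested genes. In TA against RA, 9 DDX genes were higher and 3 lower (26.5% and 8.82%), and 0 DHX genes were higher and 2 lower (12.5%), beside 6.66% and 29.2% of all tested genes. At an unadjusted limma p under 0.05, 12 DDX genes and 1 DHX gene were higher in TA than in RA. After centring 20 of 34 DDX and 7 of 16 DHX genes were higher. The absence of higher DHX genes therefore depended on the scaling.

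The genes were also grouped by the last residue of the motif, a grouping that was made after the values had been seen and is given without a test. All 9 genes higher in TA than in RA carried an aspartate form (9 of 29 tested, 0 lower), and the median difference in that group was 0.45. None of the 19 histidine forms was higher and 3 were lower, namely DDX11, DDX60L and DHX34, with a median of -0.04, where 6.66% of all tested genes were higher and 29.2% lower. At an unadjusted limma p under 0.05, 1 aspartate form was lower and 1 histidine form higher. Both genes without a match in the motif search, DDX12P and DHX32, were lower as well. After centring, 20 of the aspartate and 7 of the histidine forms were higher. In RA against TR, 10 of 29 aspartate forms were higher and 7 lower (34.5% and 24.1%), and 4 of 19 histidine forms were higher and 5 lower (21.1% and 26.3%), beside 19.2% and 48% of all tested genes. The forms differed in other ways too: the median protein had 662 residues in the aspartate and 1143 in the histidine forms, and UTRs made up a median of 31.3% and 21.5% of the transcript.

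**Figure D2:**
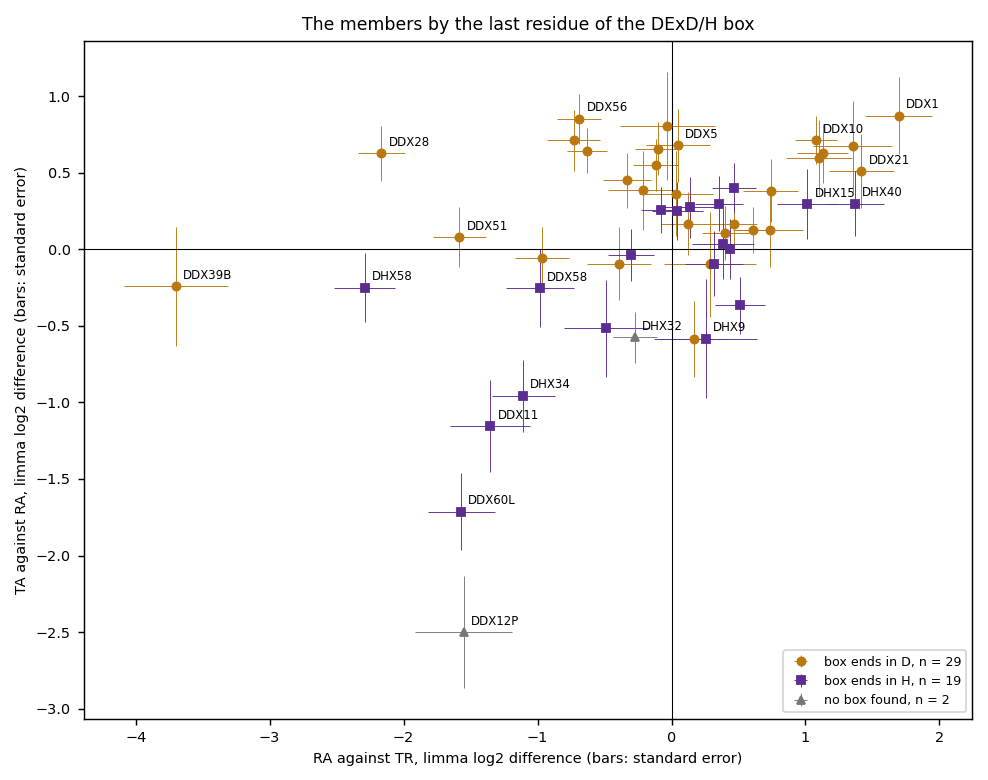
limma log2 differences of the 50 tested genes, RA against TR on the horizontal and TA against RA on the vertical axis. Bars are standard errors. Circles mark a motif ending in aspartate (D), squares in histidine (H) and triangles no match in the motif search. All 9 genes called higher on the vertical axis are circles, and DDX12P, DDX60L, DDX11 and DHX34 lie lowest; both axes use the RA libraries, so that their spread is shared.

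Ribosome biogenesis was the largest group, with 16 genes whose products mature the pre-ribosomal RNA and subunits. RA was higher than TR for 8 of them, lower for 5, and neither for 3 (median difference 0.43), where 19.2% of all tested genes were higher and 48% lower. The split depended on the scaling and on 1 library, as centring gave 9 higher and 1 lower, and leaving out TR replicate 2 gave 3 higher and 4 lower. TA was higher than RA for 5 and lower for 0 (6.66% and 29.2% of all tested genes), the latter also at an unadjusted limma p under 0.05 (median 0.56). Without TA replicate 1, 0 of the 5 calls were left, and 4 genes were higher at an unadjusted limma p under 0.05. DDX10, DDX18, DDX21, DDX24, DDX47, DDX50, DHX33 and DHX37 made up the higher side in RA. The calls of DDX50, DHX33 and DHX37 were lost without TR replicate 1, TR replicate 2, RA replicate 2 or RA replicate 3. DDX21 exceeded TR by 1.42 (SE 0.24, adjusted p = 0.001), and DDX47 by 1.35 (SE 0.30, adjusted p = 0.0039). The call of DDX47 was lost without TR replicate 2, and 99.7% of its transcript is also annotated as exon of APOLD1 on the same strand.

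DDX10, which acts on the small subunit precursor, had 16.6 and 16.1 RPKM in TR, 31.7, 38.3 and 34.0 in RA, and 59.0 and 54.6 in TA. Its parameters did not overlap, and the differences were 1.08 (adjusted p = 0.00044) for RA against TR and 0.71 (adjusted p = 0.012) for TA against RA. DDX18 showed the same order, with 20.99 and 16.0 RPKM in TR, 41.1, 41.1 and 38.3 in RA, and 71.4 and 54.0 in TA. The TA against RA call of DDX10 was lost without TA replicate 1, and that of DDX18 without TA replicate 1 or any 1 RA library. DDX24, a large nucleolar helicase, rose from 32.5 and 24.0 RPKM in TR to 81.5, 51.9 and 51.4 in RA (1.10, adjusted p = 0.0045). That call was lost without TR replicate 2. In TA DDX24 had 91.77 and 90.55 RPKM, and its TA against RA difference was not called.

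The other side held DDX49, DDX51, DDX52, DDX55 and DDX56, all lower in RA than in TR. DDX51, which acts on the large subunit, had 30.8 and 35.2 RPKM in TR, 9.99, 12.4 and 10.5 in RA, and 13.4 and 9.97 in TA. Its RA was lower by 1.58 on the log2 scale (SE 0.20, adjusted p = 0.00018), also after centring, while its TA and RA values overlapped. DDX56 and DDX52 had a different course, with TR and TA both above RA. DDX56, a nucleolar helicase of the large subunit, had 57.0 and 65.8 RPKM in TR, 36.1, 41.0 and 36.9 in RA, and 72.6 and 64.8 in TA. The differences were -0.69 (adjusted p = 0.0059) and 0.85 (adjusted p = 0.0074). DDX52, whose counterpart in yeast acts on the small subunit, had 18.9 and 28.1 RPKM in TR, 13.9, 13.7 and 14.0 in RA, and 24.0 and 21.6 in TA. DDX49 stood at 43.6 ± 2.13 in TR (n = 2), 28.1 ± 1.55 in RA (n = 3) and 43.98 ± 0.535 RPKM in TA (n = 2). The lower calls of DDX49, DDX52, DDX55 and DDX56 were lost after centring, and that of DDX52 also without TR replicate 2. In TA against RA the higher calls of DDX49 and DDX52 were lost without RA replicate 3, TA replicate 1 or TA replicate 2, and that of DDX56 without TA replicate 1.

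Of the 10 genes of pre-mRNA splicing and snRNP assembly, 2 were higher and 0 lower in RA against TR (20% higher, beside 19.2% higher and 48% lower among all tested genes), and 1 was higher and 0 lower in TA against RA (10% higher, beside 6.66% and 29.2%). At an unadjusted limma p under 0.05, 0 were lower in RA and 1 in TA. DHX15 was higher in RA than in TR by 1.01 (SE 0.23, adjusted p = 0.0044), which was lost without TR replicate 2. DDX41, a helicase of the late spliceosome, was higher in RA by 0.61 (SE 0.15, adjusted p = 0.0076), with 30.1 and 29.6 RPKM in TR and 43.6, 46.6 and 46.6 in RA. DDX20, which assembles snRNPs with the SMN protein, had 10.1, 11.7 and 12.5 RPKM in RA and 16.6 and 16.7 in TA. This difference of 0.55 (adjusted p = 0.038) was lost without any 1 of the 7 libraries. DDX23, the human counterpart of yeast Prp28, was among the 5 lowest in TA over RA of the 47 genes that reached 1 RPKM in every parameter, at 34.8 and 26.6 RPKM in TR, 43.6, 34.2 and 26.7 in RA and 26.1 and 19.8 in TA, and did not pass the test (-0.59, adjusted p = 0.10). The DEAH remodellers DHX8, DHX16, DHX35 and DHX38 passed neither test, with RA against TR differences from -0.30 to 0.36. After centring, 9 of the 10 splicing genes were higher in RA.

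DDX1, which works with the tRNA ligase complex, had the highest RA over TR and the highest TA over RA of the helicase genes. It measured 21.5 and 13.9 RPKM in TR, 67.3, 57.1 and 46.5 in RA, and 116 and 91.6 in TA, with no overlap between parameters. RA exceeded TR by 1.70 (SE 0.25, adjusted p = 0.00046) and TA exceeded RA by 0.87 (SE 0.25, adjusted p = 0.029). The call in TA was lost without RA replicate 3, TA replicate 1 or TA replicate 2. DHX9, also called RNA helicase A, was set apart by 1 library. Its RA was 89.5 RPKM in replicate 1 and 35.7 and 35.9 in the others, against 46.6 and 35.6 in TR and 32.5 and 32.3 in TA. It passed neither test (0.25, adjusted p = 0.58; -0.58, adjusted p = 0.27).

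**Figure D3:**
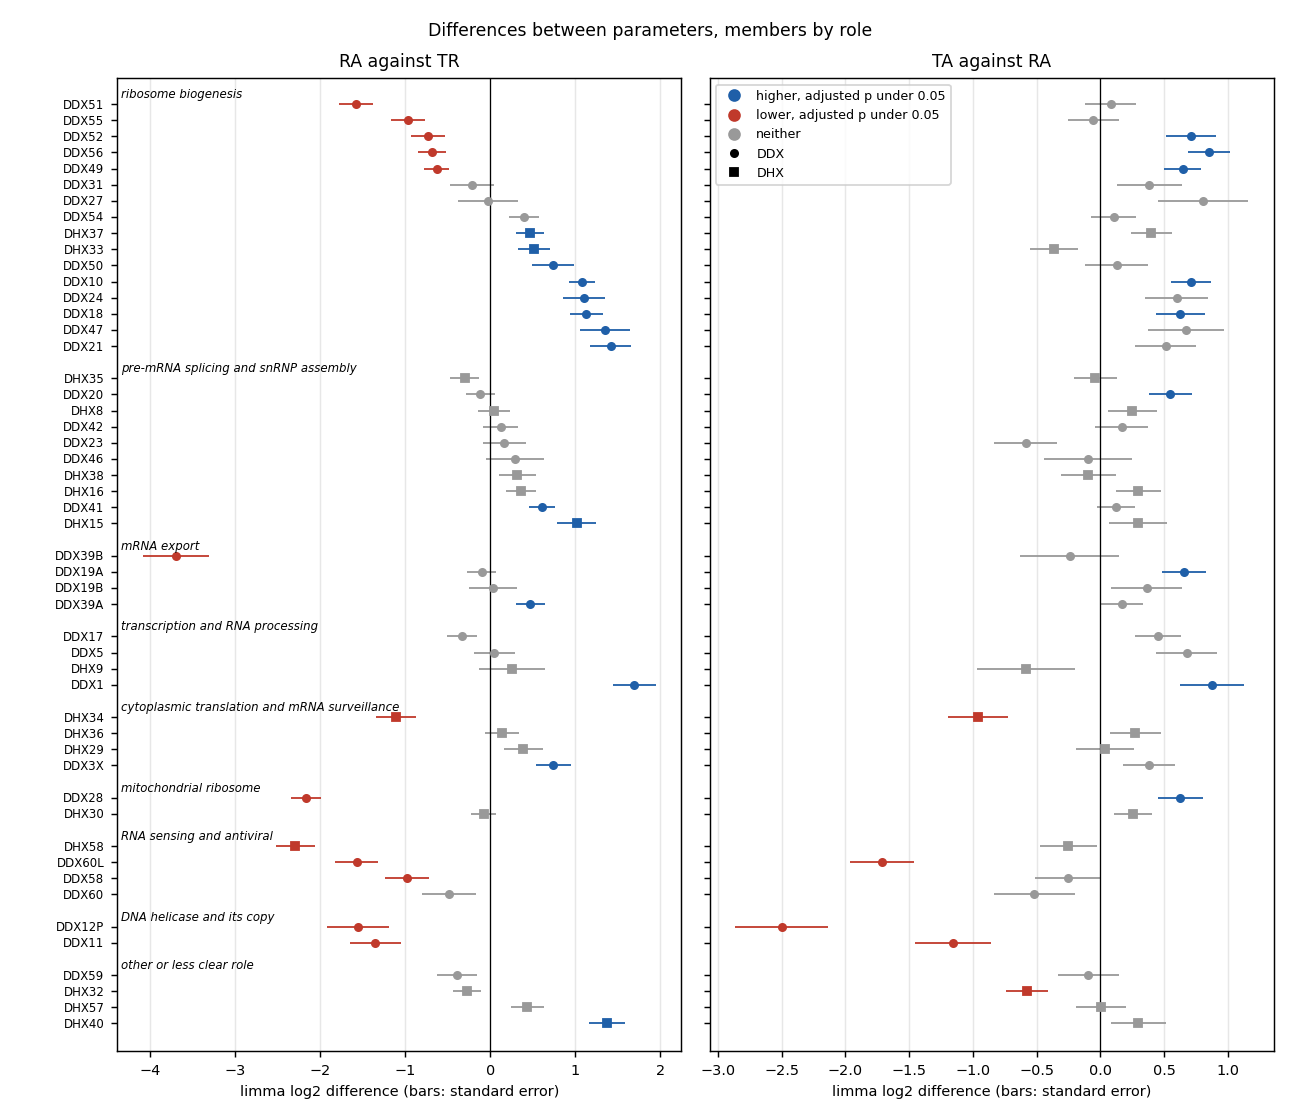
limma log2 differences with standard errors for the 50 tested genes, grouped by role, RA against TR on the left and TA against RA on the right; blue marks an adjusted p under 0.05 and higher, red lower and grey neither, circles are DDX and squares DHX. In ribosome biogenesis 8 genes are blue and 5 red on the left, and no gene is red on the right.

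Among the helicases of cytoplasmic translation and mRNA surveillance, DDX3X and DHX34 went opposite ways. DDX3X, which helps ribosomes start on structured leaders, had 40.2 and 34.9 RPKM in TR, 65.1, 66.2 and 57.0 in RA, and 98.7 and 67.7 in TA. RA exceeded TR by 0.74 (SE 0.20, adjusted p = 0.013), which was lost without TR replicate 2, and TA did not differ from RA beyond the threshold (0.38, adjusted p = 0.18). DHX34, which acts in nonsense-mediated decay, had 25.02 and 32.1 RPKM in TR, 10.2, 14.4 and 15.4 in RA, and 7.42 and 6.05 in TA. Each step was lower, by -1.11 (adjusted p = 0.0034) and -0.96 (adjusted p = 0.018), and both calls were lost after centring. The call in RA was also lost without TR replicate 2, and that in TA without RA replicate 3, TA replicate 1 or TA replicate 2. DHX29, which acts with the scanning ribosome, and DHX36, which unwinds G-quadruplexes, passed neither test and stayed between 11.2 and 22.8 RPKM.

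DDX28 and DHX30 both act on the mitochondrial ribosome, and their course differed. DDX28 had 32.2 and 30.2 RPKM in TR, 6.59, 6.60 and 7.42 in RA, and 11.8 and 9.58 in TA. RA was below TR by 2.17 on the log2 scale (-2.17, SE 0.18, adjusted p = 1.6e-05), a call kept after centring and without any 1 library. TA was above RA by 0.63 (adjusted p = 0.028), which was lost without any 1 of TR replicate 1, TR replicate 2, RA replicate 2, RA replicate 3 or TA replicate 1. DHX30 stayed between 34.6 and 45.4 RPKM in all libraries and passed neither test.

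The 4 genes listed for RNA sensing and antiviral defence had differences below 0 in RA against TR and in TA against TR. All 4 were called lower in TA than in TR, beside 57.5% of all tested genes. In RA against TR 3 of them were called lower (median -1.28), beside 48% of all tested genes. DDX60 was not called there unless RA replicate 1 was left out, which made it lower. IFIH1, listed among the other RNA helicases, had values above 0 that were not called. They were 0.58 (adjusted p = 0.14) in RA against TR and 0.695 (adjusted p = 0.11) in TA against TR. After centring, DDX58 and DDX60 were no longer called in TA against TR, and the value of DDX60 turned to 0.17. The TA against TR call of DDX60 was also lost without TR replicate 1, TR replicate 2 or TA replicate 1. DHX58, which encodes the sensor LGP2, had 9.46 and 10.3 RPKM in TR, 2.22, 1.90 and 1.73 in RA, and 1.80 and 1.45 in TA. Its RA against TR difference of -2.29 (SE 0.23, adjusted p = 4.8e-05) was the lowest of the 47 genes above 1 RPKM in each parameter, and its call was kept after centring. DDX58, which encodes the sensor RIG-I, had 17.5 and 15.8 RPKM in TR, 11.6, 6.504 and 7.74 in RA, and 6.89 and 7.09 in TA (RA against TR -0.98, adjusted p = 0.0093). That call was lost after centring and without either TR library, and 96.6% of the transcript is covered by another coding annotation. TA did not differ from RA beyond the threshold for DHX58 (-0.25, adjusted p = 0.42) or DDX58 (-0.25, adjusted p = 0.47).

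DDX11, a DNA helicase of sister chromatid cohesion, and its copy DDX12P were lower at both steps. DDX11 had 19.9 and 17.4 RPKM in TR, 9.91, 5.02 and 7.57 in RA, and 2.77 and 3.67 in TA. The differences were -1.35 (adjusted p = 0.0042) and -1.16 (adjusted p = 0.021). DDX12P had 10.8 and 8.04 RPKM in TR, 3.93, 2.12 and 3.60 in RA, and 0.324 and 0.662 in TA, from 39 and 58 reads in the TA libraries. Its differences were -1.55 (adjusted p = 0.0057) and -2.50 (adjusted p = 0.0038). The second call was kept in every alternative in which the gene was tested. DDX12P was not tested where 1 RPKM was required in each parameter. As it passed the filter through TR and RA, the filter partly sets this call. The aligned stretch of the transcripts, 2587 bases, was 98.3% identical, so that reads may have been placed on either gene and the split between them is uncertain. The calls of DDX11 were lost after centring, as was that of DDX12P in RA against TR, and all 3 were lost when TR replicate 1 was left out. The TA against RA call of DDX11 was also lost without TR replicate 2, RA replicate 3 or TA replicate 1.

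Of the 4 genes with a less clear role, DHX40 was higher in RA than in TR by 1.37 (SE 0.21, adjusted p = 0.00065). It had 13.0 and 11.5 RPKM in TR, 33.4, 32.5 and 29.6 in RA, and 49.0 and 31.2 in TA. DHX32, in which the motif search gave no match, had 24.3 and 28.6 RPKM in TR, 23.9, 20.1 and 21.6 in RA and 13.8 and 15.4 in TA. Its TA against RA difference was -0.58 (adjusted p = 0.031). That call was lost after centring and without RA replicate 1, RA replicate 3 or either TA library. DDX59 and DHX57 passed neither test.

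The closely related pairs show whether near copies share their levels. Their ratios are RPKM ratios within a library, so that scaling does not enter. With 2 and 3 libraries an exact two-sided permutation test cannot give a p under 0.2, and none was run on the ratios. DDX5 and DDX17, 72.5% identical over 604 aligned residues, had a ratio of 2.11 and 2.33 in TR, 3.16, 2.94 and 2.63 in RA, and 3.6 and 3.2 in TA. The ratio was thus lowest in TR and highest in TA without overlap. DDX21 and DDX50, nucleolar neighbours on chromosome 10 with 61.6% identity, had ratios of 2.64 and 2.28 in TR, 4.22, 3.62 and 3.98 in RA, and 6.11 and 4.31 in TA, again without overlap. DDX50 itself had 13.6 and 14.6 RPKM in TR, 16.8, 29.2 and 26.8 in RA, and 25.2 and 26.3 in TA.

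DDX60 and DDX60L changed places. DDX60, which assists antiviral sensing, had 5.10 and 5.32 RPKM in TR, 5.40, 2.62 and 3.52 in RA, and 2.21 and 2.93 in TA. DDX60L had 7.03 and 6.08 RPKM in TR, 2.23, 2.11 and 2.06 in RA, and 0.734 and 0.458 in TA. The ratio was 0.725 and 0.875 in TR, 2.42, 1.24 and 1.70 in RA, and 3.01 and 6.40 in TA. DDX60L was lower at both steps (-1.57, adjusted p = 0.00071, and -1.71, adjusted p = 0.0038), while DDX60 passed neither test (-0.49, adjusted p = 0.20, and -0.52, adjusted p = 0.24). Without RA replicate 1, DDX60 was called lower in RA than in TR (-0.76, limma adjusted p = 0.032).

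DDX39A and DDX39B, mRNA export helicases that are 90.2% identical as proteins, were far apart in listed RPKM. DDX39A had 57.0 and 53.3 RPKM in TR, 80.2, 71.0 and 78.3 in RA, and 78.6 and 93.6 in TA. DDX39B had 2.46 and 6.003 RPKM in TR, 0.182, 0.205 and 0.225 in RA, and 0.225 and 0.103 in TA, which rested on 18 and 73, 8, 10 and 10, and 15 and 5 reads. RA was below TR for DDX39B by 3.70 on the log2 scale (-3.70, SE 0.39, adjusted p = 6.7e-05), but all of its transcript lies within exons of a read-through gene on the same strand. MCCD1, whose exons overlap those of DDX39B on the opposite strand, had 136 and 150 RPKM in TR. It had 0.208 RPKM in RA replicate 1 and 0 in the other RA and TA libraries. The part of these overlaps in the low counts was not tested, so that the level of DDX39B and its ratio to DDX39A are uncertain. DDX19A and DDX19B, export helicases with 96.2% of residues and 95.6% of aligned coding bases in common, had ratios from 1.33 to 2.31 in which the parameters overlapped. Reads may have been placed on either gene, so that the split between DDX19A and DDX19B is uncertain. Another coding annotation on the same strand also covers 64.2% of the DDX19A transcript and 21.7% of the DDX19B transcript. DDX19A was higher in TA than in RA (0.66, adjusted p = 0.022), with 19.9 and 24.4 RPKM in TR, 20.2, 21.1 and 20.3 in RA, and 36.0 and 29.3 in TA. DDX19B, at 10.2 and 14.04 RPKM in TR, 8.75, 15.9 and 13.1 in RA, and 17.0 and 14.6 in TA, passed neither test. The call of DDX19A was lost without RA replicate 3 or TA replicate 1.

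**Figure D4:**
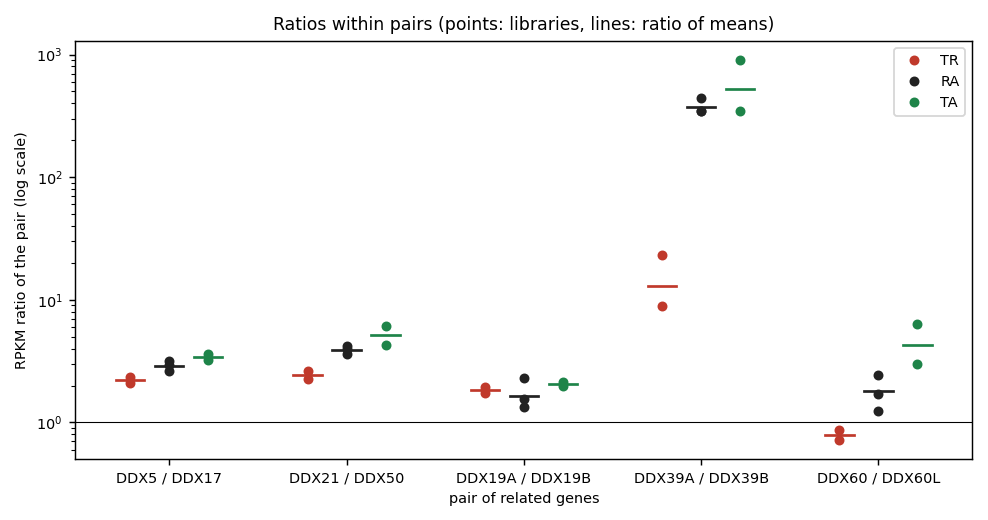
RPKM ratio within 5 pairs of related genes on a log axis; points are libraries, red for TR, black for RA and green for TA, lines are ratios of the means, and the thin line marks a ratio of 1. DDX60 over DDX60L lies below 1 in both TR libraries and above 1 in the others, and DDX39A over DDX39B reaches 907 in 1 TA library, where DDX39B had 5 reads.

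The spread between helicase genes grew from TR to RA to TA, with an SD of log2 RPKM of 0.95, 1.30 and 1.57 over the 47 genes above 1 RPKM in each parameter, against 1.29, 1.67 and 1.95 over the 10825 genes at that level. Across those 47 genes, which share the libraries and their scaling, log2 RPKM in RA correlated with TR at r = 0.73 and with TA at r = 0.96, as a description.

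Beyond the DDX and DHX symbols, 19 other RNA helicases were listed, of which 17 were tested. RA was higher than TR for 3 of them and lower for 2 (17.6% and 11.8%, beside 19.2% and 48% of all tested genes), and TA was higher than RA for 1 and lower for 4 (5.88% and 23.5%, beside 6.66% and 29.2%). EIF4A3, the helicase of the exon junction complex, was higher in RA, with means of 64.6 RPKM in TR and 143 in RA (1.11, adjusted p = 0.005). DICER1, the nuclease of microRNA maturation, was lower in TA than in RA by a difference of -1.54 (adjusted p = 0.0034). Among 28 cofactors that bind helicases, RA was higher than TR for 11 and lower for 8 (39.3% and 28.6%), and TA was higher than RA for 5 and lower for 4 (17.9% and 14.3%), beside the same shares of all tested genes. The G-patch proteins, which activate DEAH helicases, included GPKOW, higher at both steps (0.52, adjusted p = 0.019, and 1.34, adjusted p = 0.0027), and GPATCH3, lower in RA than in TR (-2.46, adjusted p = 5.2e-05). TFIP11, GPATCH2, GPATCH4 and ZGPAT were also lower in RA than in TR, and GPKOW was the only one of them higher. In TA against RA, TFIP11 and PINX1 were higher as well, and RBM17 and AGGF1 were lower. Exon overlap with other genes was examined for the DDX and DHX genes only, not for these lists. The calls of these lists come from the main fit, and no results after centring or without single libraries are given for them. With those limits, MAGOH and RBM8A, which form a dimer in the exon junction complex, differed in direction. MAGOH was higher in RA (1.62, adjusted p = 0.0021) and in TA (1.08, adjusted p = 0.03), and RBM8A was lower in RA (-1.09, adjusted p = 0.014) and in TA (-1.06, adjusted p = 0.032).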

How the data were processed

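The deposited RPKM values cover 2 GRO-seq (TR), 3 RNA-seq (RA) and 2 polysome (TA) libraries of HCT116 cells. The authors aligned reads to hg19 with TopHat, counted reads over exons with HTSeq and divided by exon length and library size to give RPKM. Versions, annotation, strand setting and treatment of overlapping genes are not given in the sources used here. Coding exons on the opposite strand covered, among others, 20.3% of the DDX55 transcript and 13.3% of the DHX32 transcript. They covered 11.6% for DDX24, 11.4% for DDX54 and 10.55% for DHX38. The effect of these overlaps on the values was not tested. GRO-seq reads in introns do not enter an exon count. The study calls the replicates biological, and the labels do not tie them to separate cultures, so p-values measure the spread between these libraries.

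Reads were recovered from the steps of the RPKM values. The 14305 genes whose mean reached 1 RPKM in TR, RA or TA were tested on log2(RPKM + 0.1) with limma 3.58.1 (R 4.3.3) and a trend. The 7 libraries shared 1 fit, p-values were adjusted after Benjamini and Hochberg, and the procedure was tested on simulated data. The labels do not say whether equal replicate numbers pair libraries, and the main fit treated the libraries as unpaired. The alternatives were pseudocounts of 0.01 and 1, other filters, median centring, a replicate block, fits of 2 parameters and leaving out each library.

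The genes and lists were chosen with earlier results of these data known. Values in every library are given for the 5 highest and 5 lowest genes in RA over TR and in TA over RA (at least 1 RPKM in each parameter, same sign in all library pairings), the 3 highest per parameter, 5 related pairs, DDX3X, DHX9 and DDX58. Other genes were named after their values were seen. Annotation came from GENCODE 44 on GRCh37, with all 54 genes matched, DDX58 as RIGI.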

Additional observations from a re-analysis of the deposited data

How the results depend on the processing

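Scaling and single libraries set the limits of the counts of the 50 helicase genes. Median centring gave 28 higher and 5 lower in RA against TR, 27 and 2 in TA against RA, and 37 and 6 in TA against TR, and turned the direction of no call. Requiring 1 RPKM in each parameter left 3 lower in TA than in RA. Leaving out single libraries gave 6 to 14 higher and 10 to 14 lower genes in RA against TR, 0 to 8 and 2 to 5 in TA against RA, and 12 to 18 and 11 to 12 in TA against TR, with 0 higher in TA than in RA without TA replicate 1 (6 at an unadjusted limma p under 0.05). The DDX minus DHX gap lay between -0.54 and -0.20 for RA over TR, and between 0.16 and 0.38 for TA over RA. These ranges are narrower than those over single pairings of libraries, -0.65 to -0.11 and 0.07 to 0.53. Pseudocounts of 0.01 and 1 changed no call. Single-gene results under alternatives were tallied for RA against TR and TA against RA, only in the genes chosen for values in every library. That choice asked the extreme genes for the same sign in all library pairings, and it left out DDX18, DDX20, DDX49, DHX33 and DHX37. In this tally 679 results kept direction and side of the threshold, 65 fell behind it, 14 passed it and 22 changed sign. The changes of sign all fell in comparisons without a call as reported. Centring turned RA against TR to 0.40 for DHX32, 0.34 for DDX17, 0.57 for DDX19A (then called) and 0.18 for DDX60, and TA against RA to 0.25 for DHX58, 0.26 for DDX39B and 0.25 for DDX58. Over the fits that left out 1 library, RA against TR ranged from -0.19 to 0.48 for DHX9, -0.028 to 0.36 for DDX23, -0.0066 to 0.14 for DDX5, -0.0024 to 0.23 for DDX42, -0.25 to 0.045 for DDX19A and -0.20 to 0.27 for DDX19B. TA against RA ranged from -0.13 to 0.29 for DDX51, -0.027 to 0.62 for DHX40, -0.028 to 0.36 for DDX42, -0.12 to 0.28 for DDX50 and -0.58 to 0.099 for DDX39B. The causes were not tested. The TR libraries are the smallest, at 3391897 and 5629982 reads, which limits genes of few reads such as DDX39B.

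The replicate numbers were shared across parameters. Differences between replicates 1 and 2 correlated at 0.15 between TR and RA, -0.56 between RA and TA and 0.019 between TR and TA over 10823 genes. With 1 such difference per parameter, these values cannot decide whether equal numbers stand for paired libraries. With the replicate block, 9 genes were higher in RA than in TR, 0 were higher in TA than in RA (9 at an unadjusted limma p under 0.05) and 2 were lower in TA than in RA. RA against TR of DDX19B turned to -0.019.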
